A study of Arabidopsis thaliana with 39 samples.

Results

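The SMAX1-like (SMXL) family of *Arabidopsis thaliana* has 8 genes, *SMAX1* and *SMXL2* to *SMXL8*, and small RNAs from all 8 were examined in mutants of RNA metabolism. The members were taken by gene identifier, *SMAX1* (AT5G57710), *SMXL2* (AT4G30350), *SMXL3* (AT3G52490), *SMXL4* (AT4G29920), *SMXL5* (AT5G57130), *SMXL6* (AT1G07200), *SMXL7* (AT2G29970) and *SMXL8* (AT2G40130), and all 8 are among the 37184 genes counted. Small RNAs were sequenced from 39 libraries in 13 groups of 3, to ask whether defects in RNA maturation or decay make mRNAs a source of small interfering RNAs. The first set held *lsm1a lsm1b*, *ncb-4*, *upf1-5* and *upf3-1* with their wild type Col-0 (1), and the second held *ccr4a*, *fy-2*, *pab2 pab4*, *rsr1-2* and *ahg2-1* with Col-0 (2), all as 14 day-old seedlings on solid MS medium. The third set held *cstf64-2* with Col-0 (3), both 21 day-old plants grown on soil.

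All groups were grown in long days, and the labels name no treatment. The *lsm1a lsm1b* plants lack both LSM1 proteins, which belong to a complex that activates decapping before 5′ to 3′ decay of mRNA. Nonsense-mediated decay is impaired in *upf1-5*, which is hypomorphic, and in *upf3-1*, while *ncb-4* affects COILIN of the Cajal bodies. The *ahg2-1* and *ccr4a* mutants are defective in putative deadenylases and *pab2 pab4* in a pair of poly(A)-binding proteins. Factors of pre-mRNA 3′ end formation are mutated in the hypomorphic *fy-2*, in the knock-out *rsr1-2* and in *cstf64-2*, whose homozygotes are sterile and were picked by their appearance. Whole seedlings or plants were used, so fewer cells that carry a small RNA and less of it per cell cannot be told apart.

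SMXL proteins are related to the ClpB/Hsp100 chaperones and act as repressors of transcription with TOPLESS corepressors. SMAX1 and SMXL2 are degraded in response to karrikins through the receptor KAI2 and the F-box protein MAX2. SMXL6, SMXL7 and SMXL8 are degraded in response to strigolactones through the receptor D14 and the same F-box protein. SMXL3, SMXL4 and SMXL5 are not targets of MAX2 and act in the formation of phloem.

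*SMXL5* lies on chromosome 5 from 23144947 to 23149615 on the plus strand, and *SMXL4* on chromosome 4 from 14632413 to 14636101 on the minus strand (TAIR10.1). The summed exons of a member ran to 3259 bases in *SMXL8*, the shortest, and 4065 bases in *SMXL6*, the longest. Since a read could be counted at each of up to 10 places that it matched exactly, the stretches that members share decide whether a read of one could also count for another. The longest exact runs that *SMXL4* and *SMXL5* each share with *SMXL2* are shown on the sense strand, with positions on TAIR10.1, and both are in coding sequence.
*SMXL2* (chr4:14848235-14848259, plus strand) and *SMXL4* (chr4:14635633-14635657, minus strand): tgtcgagctctcgagctctgtttca
*SMXL2* (chr4:14848478-14848510, plus strand) and *SMXL5* (chr5:23145886-23145918, plus strand): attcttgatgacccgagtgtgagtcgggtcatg

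The longest run shared by *SMXL4* and *SMXL5* was 15 bases long, the shortest read kept, and these genes had no word of 18 bases in common. *SMXL5* shared 13 words of 21 bases with *SMXL2*, and *SMXL4* shared 5 with *SMXL2*. *SMXL2* is not the only member that shares such words with *SMXL4*, and the others are not reported here. Words of 21 bases that occur at more than one place in the genome made up 0.636% of those of *SMXL4* and 0.644% of those of *SMXL5*. Among the 8 members this share was 0.0% in *SMXL8* at the low end and 1.85% in *SMXL6* at the high end.

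Between 6437260 and 7968503 counts fell on genes per library in the first set, between 7767365 and 9151932 in the second, and between 2015212 and 2323991 in the third. Levels are given as RPM, which are counts per 1000000 counts on genes after TMM scaling, and per kb of exon where members are compared with each other. In RPM, 3 counts were worth 0.338 to 0.553 in the first set, 0.266 to 0.467 in the second and 1.17 to 1.54 in the third. Counts carry no molecular identifiers, so the intervals and these floors cover counting error only. The mutated genes gave small RNA counts too low to check most labels, for example 0, 0 and 0 for *LSM1A* in *lsm1a lsm1b* against 4, 0 and 1 in Col-0 (1), and 1, 3 and 1 for *LSM1B* against 0, 3 and 1. *PAB2* had 4, 9 and 5 counts in *pab2 pab4* against 86, 87 and 96 in Col-0 (2), and *FY* had 56, 31 and 23 in *fy-2* against 1, 2 and 3.

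In the first set, small RNAs of *SMXL5* and *SMXL4* rose in *lsm1a lsm1b*, while no other member was called in this mutant. *SMXL5* had 96, 70 and 112 counts in the *lsm1a lsm1b* libraries, against 2, 5 and 0 in Col-0 (1). All mutant libraries were far above all wild-type ones, with no overlap. In RPM *SMXL5* averaged 10.9 ± 1.62 in *lsm1a lsm1b* and 0.417 ± 0.459 in Col-0 (1) (SD, n = 3 each). For *SMXL5* the log2 fold change (log2FC) was 4.57 ± 0.44 (SE), with an adjusted p of 9.72e-06 in the quasi-likelihood test of edgeR, adjusted by Benjamini-Hochberg over 9558 genes.

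*SMXL4* had 14, 13 and 13 counts in *lsm1a lsm1b*, against 1, 1 and 0 in Col-0 (1). Its mutant libraries were nearly equal and did not overlap with the wild type, at a level much below that of *SMXL5*. The means were 1.59 ± 0.14 RPM in *lsm1a lsm1b* and 0.117 ± 0.102 RPM in Col-0 (1) (SD, n = 3 each). For *SMXL4* log2FC was 3.47 ± 0.74 (SE), with an adjusted p of 0.00467 in that edgeR test. DESeq2 gave *SMXL5* an adjusted p of 2.77e-11, and it set *SMXL4* aside for its low mean count and gave it no adjusted p. Both genes passed edgeR's filter on low counts only through the *lsm1a lsm1b* libraries, so a gene of this level could pass only if the groups differed. With no filter, edgeR called both again, with log2FC of 4.61 for *SMXL5* and 3.51 for *SMXL4*, where 1.12% of all genes were called up.

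A gene was called where its adjusted p was under 0.05 and its log2FC was above 1 or below -1. Of the 8 members, 3 passed the filter in *lsm1a lsm1b* and 2 were called up, where 2.2% of all genes tested were called up and 5.46% down. The family was chosen with results of these libraries known, so its calls are not independent evidence. Among the 123 protein-coding genes called up in this mutant, *SMXL5* ranked 5 and *SMXL4* ranked 7 by log2FC, where the median gene had 1.56. By the gain in RPM they ranked 16 and 113. *SMXL5* gained 10.5 RPM and *SMXL4* 1.48 RPM, against a median of 3.57 RPM over these genes. The large log2FC of *SMXL4* stood on a small number of reads.

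The *SMXL5* count was 6.86, 5.38 and 8.62 times the *SMXL4* count in the 3 libraries of *lsm1a lsm1b*. As the sum of 3 libraries after scaling, *SMXL5* was 26.5 times as high in *lsm1a lsm1b* as in Col-0 (1), with an exact 95% interval of 12.7 to 66.4. For *SMXL4* this ratio was 13.3, with an interval of 3.45 to 114, with only 2 counts in the wild type. The intervals of both genes overlapped widely.

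**Figure D1:**
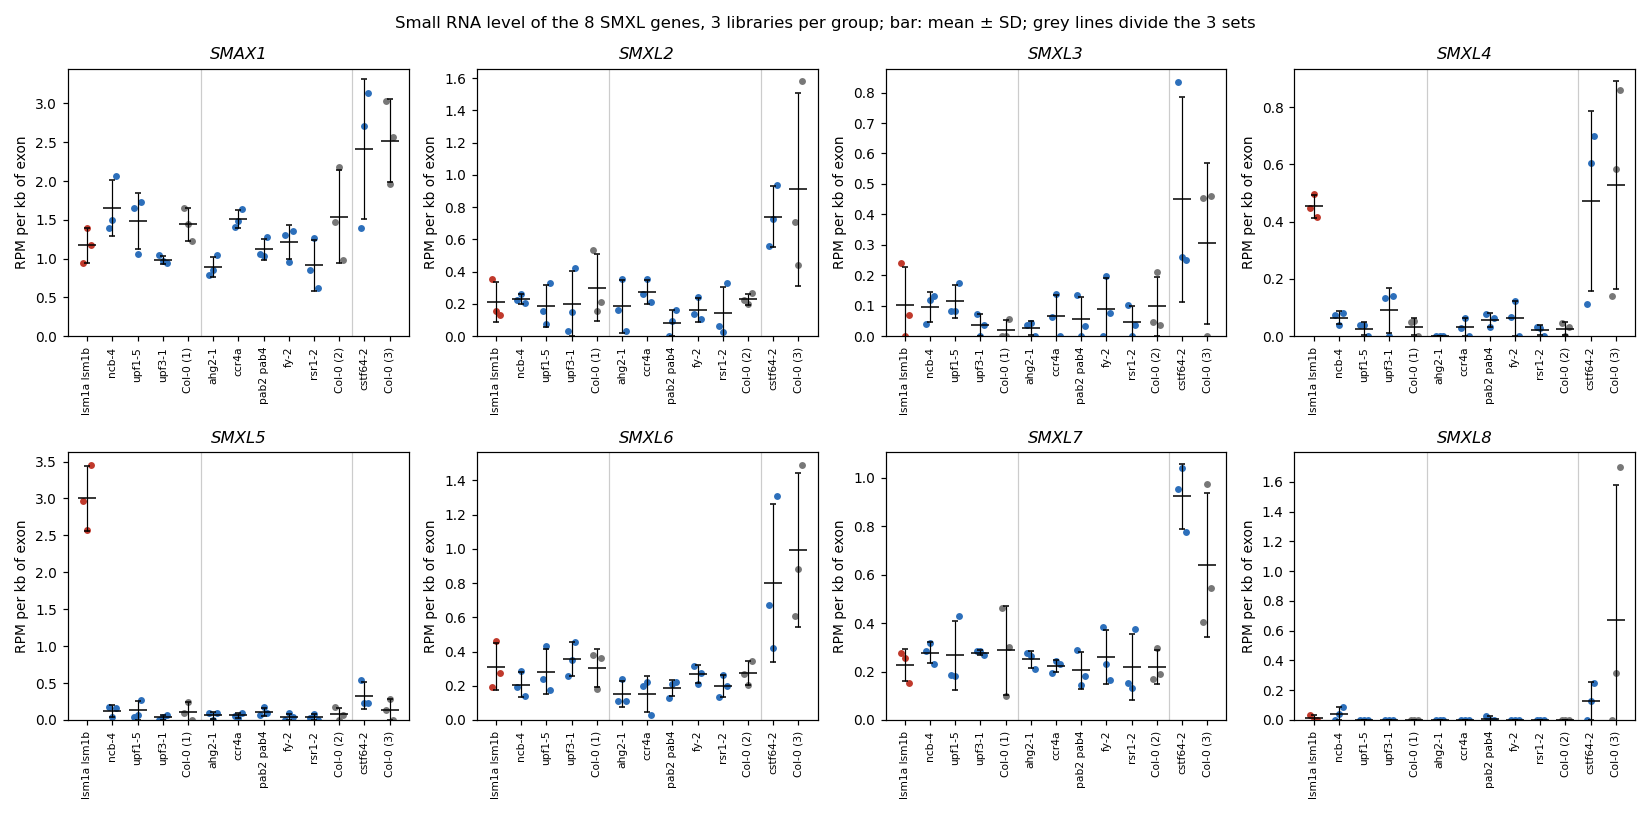
Small RNA level of each member, in RPM per kb of exon on a linear axis of its own, for the 3 libraries of each group (points, with mean ± SD as black bars) and with each mutant left of the Col-0 of its set. Red points are *lsm1a lsm1b*, blue the other mutants and grey Col-0. *SMXL5* stood at 3.0 ± 0.443 in *lsm1a lsm1b* and 0.114 ± 0.126 in Col-0 (1), and *SMAX1* stood at 2.41 in *cstf64-2* and 2.52 in Col-0 (3).

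The difference was then tested between *lsm1a lsm1b* and each other mutant of the first set, without the wild-type libraries. *SMXL5* had 5, 1 and 4 counts in *ncb-4*, 1, 2 and 7 in *upf1-5* and 0, 1 and 2 in *upf3-1*, all far below the 70 to 112 of *lsm1a lsm1b*. The log2FC of *lsm1a lsm1b* was 4.56 over *ncb-4* (SE 0.34, adjusted p = 5.73e-07), 4.47 over *upf1-5* (SE 0.39, adjusted p = 1.7e-06) and 6.30 over *upf3-1* (SE 0.43, adjusted p = 1.5e-08) by the same edgeR test. *SMXL4* had 2, 1 and 2 counts in *ncb-4*, 1, 1 and 0 in *upf1-5* and 4, 0 and 4 in *upf3-1*, again with no overlap with the 13 to 14 of *lsm1a lsm1b*. Its log2FC was 2.74 over *ncb-4* (SE 0.53, adjusted p = 0.00302), 3.85 over *upf1-5* (SE 0.72, adjusted p = 0.00184) and 2.22 over *upf3-1* (SE 0.61, adjusted p = 0.0181).

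Here too both genes passed the filter only through the *lsm1a lsm1b* libraries. In these direct comparisons both members were called each time, where 3.26%, 2.77% and 3.82% of all genes were called up over *ncb-4*, *upf1-5* and *upf3-1*. With no filter log2FC was 4.55, 4.49 and 6.29 for *SMXL5* and 2.73, 3.87 and 2.22 for *SMXL4* over the same mutants. The highest of these adjusted p-values was 0.00877 (edgeR), for *SMXL4* over *upf3-1*. The share of all genes called with no filter is not reported here for these comparisons. Of the direct comparisons, *SMXL4* over *upf3-1* was the weakest. It lost its call when *lsm1a lsm1b* replicate 3, *upf3-1* replicate 1 or *upf3-1* replicate 2 was left out, with adjusted p-values of 0.0555, 0.0559 and 0.0858 in the edgeR test. *SMAX1* and *SMXL6* were not called in any of them where they passed the filter, and *SMXL2*, *SMXL3*, *SMXL7* and *SMXL8* did not pass it.

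**Figure D2:**
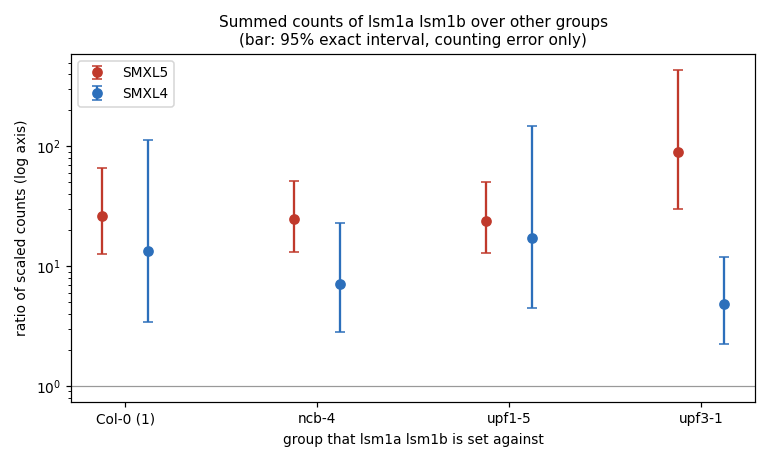
Ratio of the summed, scaled counts of *lsm1a lsm1b* to those of each other group of the first set on a log axis, with exact 95% intervals that cover counting error only (red, *SMXL5*, and blue, *SMXL4*). All 8 intervals lay above 1, the lowest bound being 2.23 for *SMXL4* against *upf3-1*.

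The other members gave no such pattern in *lsm1a lsm1b*. *SMXL2*, the karrikin-pathway partner of *SMAX1* that shares the run of 33 bases with *SMXL5*, had 11, 4 and 4 counts in *lsm1a lsm1b* and 11, 3 and 4 in Col-0 (1). *SMXL3*, the third gene of the phloem group, had 7, 0 and 2 counts against 0, 0 and 1. Its counts came mostly from 1 mutant library, and the ratio of sums was 5.99 with an interval of 0.831 to 263. *SMXL6* had 7, 14 and 10 counts in *lsm1a lsm1b* against 9, 4 and 8 in Col-0 (1), and *SMXL7* had 9, 7 and 5 against 10, 2 and 6. *SMXL8* had 1 count in *lsm1a lsm1b* and 0 in Col-0 (1). With no filter, edgeR's adjusted p-values of these 5 members lay between 0.549 for *SMXL3* and 0.976 for *SMXL6*.

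Counts over the whole family were 149 to 187 in *lsm1a lsm1b* and 45 to 71 in Col-0 (1). In RPM the family total was 20.4 ± 0.608 in *lsm1a lsm1b*, against 9.58 ± 2.18 in Col-0 (1) (SD, n = 3 each). *SMXL5* made up 47.0% to 59.9% of the family's counts in *lsm1a lsm1b* and at most 10.9% in the 30 other libraries of the first and second set. *SMAX1* made up 18.5% to 27.5% in *lsm1a lsm1b* and 41.2% to 75.7% in the others. Per kb of exon, *SMXL5* was the highest member in *lsm1a lsm1b* at 3.0 ± 0.443 RPM, above *SMAX1* at 1.17 ± 0.226 and *SMXL4* at 0.453 ± 0.0397 (SD, n = 3), and the libraries of these 3 did not overlap. In Col-0 (1) the order was led by *SMAX1* at 1.44 ± 0.215, followed by *SMXL6* at 0.306 ± 0.111, *SMXL2* at 0.301 ± 0.206 and *SMXL7* at 0.287 ± 0.182. These last 3 overlapped with each other, as did *SMXL5*, *SMXL4*, *SMXL3* and *SMXL8* below them with their neighbours in the order.

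**Figure D3:**
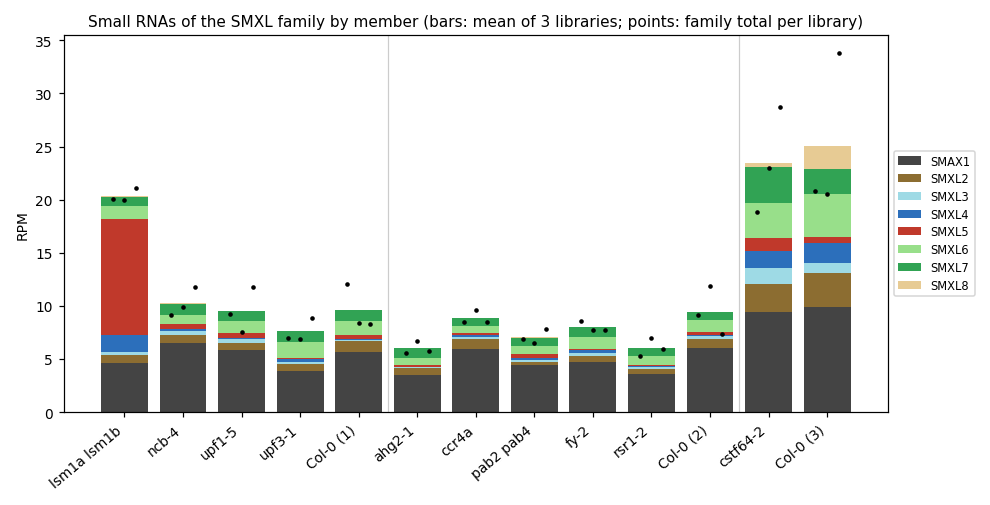
Mean RPM of the 8 members stacked for each group (bars from 0, mean of 3 libraries), with the family total of each library as points and each mutant left of the Col-0 of its set. The *SMXL5* block in red is the largest in *lsm1a lsm1b*, where the totals averaged 20.4 RPM, against 9.58 RPM in Col-0 (1).

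Outside *lsm1a lsm1b*, small RNAs of most members were near the limit of detection. In the 30 other libraries of the first and second set, *SMXL5* had 0 to 7 counts with a median of 2, and it was at 0 in 6 libraries. *SMXL4* had 0 to 4 counts with a median of 1, and was at 0 in 10 libraries. *SMXL3* had 0 to 6 counts with a median of 1. All these values are close to the floor of 3 counts.

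The strigolactone-pathway members *SMXL6* and *SMXL7* were low but present in each of these 30 libraries, with 1 to 15 and 2 to 12 counts and medians of 8 and 7. *SMXL8* was at 0 in 27 of them and never above 2. *SMXL2* had 0 to 12 counts with a median of 5. *SMAX1* was the only member with more, at 21 to 62 counts and a median of 38, and it was the highest member per kb in every group other than *lsm1a lsm1b*.

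No member was called by edgeR in any of the 9 other mutants, in which only *SMAX1* passed the filter. The share of all genes called in either direction was 10.6% in *ncb-4*, 5.29% in *upf1-5*, 12.2% in *upf3-1*, 8.83% in *ahg2-1*, 0.616% in *ccr4a*, 6.18% in *pab2 pab4*, 1.2% in *fy-2*, 2.44% in *rsr1-2* and 16.9% in *cstf64-2*. At an unadjusted p under 0.05 there were 3 of these 9 results, all *SMAX1*, in *upf3-1*, *ahg2-1* and *rsr1-2*. Without the filter 66 results of a member in a mutant were tested, and 0 were called where 0.283% to 7.14% of all genes were, with 4 at an unadjusted p under 0.05. DESeq2 also called 0, where 0.296% to 10.7% of all genes were called, although only 20 of the 66 received an adjusted p, and 1 had an unadjusted p under 0.05.

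The depth set wide limits on most of the low members. Over the 9 other mutants the ratio of summed counts of *SMXL7* to those of the wild type lay between 0.906 and 1.45, and its intervals reached from 0.46 to 3.01. For *SMXL6* the ratios were 0.533 to 1.15 and the intervals reached from 0.261 to 2.08. *SMXL5* had ratios of 0.295 to 2.43, with bounds from 0.0493 to 14.0. The highest ratios and bounds of *SMXL7* and *SMXL5* were those of *cstf64-2*, in the set of lowest depth. The interval lay below 1 for *SMXL2* in *pab2 pab4*, with 0, 3 and 5 counts against 5, 5 and 8 in Col-0 (2) and a ratio of 0.334 (0.125 to 0.806), and for *SMXL8* in *cstf64-2*, with a ratio of 0.187 (0.0342 to 0.68). For *SMAX1* it lay below 1 in *upf3-1*, *ahg2-1*, *pab2 pab4* and *rsr1-2*, and for no member did it lie above 1. These intervals leave out the spread between libraries, and edgeR called none of these. A change of a few fold in *SMXL3*, *SMXL4* or *SMXL5* was not detectable at this depth in these mutants.

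*SMAX1* could be followed in all 10 mutants, and it was not called in any. Its lowest log2FC was in *ahg2-1*, where it had 27, 24 and 37 counts against 37, 62 and 33 in Col-0 (2). The libraries overlapped before and after scaling. Its log2FC was -0.83 ± 0.29 (SE) with an adjusted p of 0.0469 by edgeR, a change smaller than that set for a call. In *rsr1-2* *SMAX1* had 30, 51 and 21 counts against the same Col-0 (2) libraries, with log2FC of -0.82 ± 0.29 (SE) and an adjusted p of 0.0679 by edgeR. Leaving out Col-0 (2) replicate 3, which had 33 counts, moved both past the threshold, to -1.11 (adjusted p = 0.00873) in *ahg2-1* and -1.07 (adjusted p = 0.0143) in *rsr1-2*, both by edgeR. Without Col-0 (2) replicate 2, which had 62 counts, log2FC was -0.46 in *ahg2-1* and -0.44 in *rsr1-2*. EdgeR's adjusted p was then 0.343 and 0.435. In *ahg2-1* it was also above 0.05 with a replicate block (0.0833), library sizes in total reads (0.198) or the other Col-0 (0.271). DESeq2 gave 0.184 there. EdgeR's adjusted p stayed under 0.05 with no filter (0.049), DESeq2's size factors (0.0474), a mean of at least 10 counts (0.0484) and 1 fit per set (0.0245). In *rsr1-2* edgeR's adjusted p was also under 0.05 with a replicate block (log2FC -0.84, 0.0422) and 1 fit per set (log2FC -0.78, 0.0437). In the other alternatives that gave *SMAX1* an adjusted p in *rsr1-2*, it lay between 0.0667 and 0.435. The *ahg2-1* and *rsr1-2* comparisons share their control libraries.

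In the first set *SMAX1* had 33, 41 and 41 counts in *lsm1a lsm1b*, 42, 45 and 57 in *ncb-4*, 47, 31 and 47 in *upf1-5* and 35, 29 and 30 in *upf3-1*, against 38, 31 and 26 in Col-0 (1). The log2FC values after TMM scaling were -0.39 (SE 0.26), 0.09 (SE 0.24), 0.00 (SE 0.26) and -0.59 (SE 0.26) in the same order. The lowest adjusted p of these was 0.0988 in *upf3-1* (edgeR). In the second set *ccr4a*, *pab2 pab4* and *fy-2* had -0.04, -0.53 and -0.41.

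When library sizes in total reads replaced TMM, all genes shifted together, and the median log2FC of all genes was between 0.21 in *ahg2-1* and 0.66 in *lsm1a lsm1b*, where TMM gave -0.07 to 0.00. *SMAX1* then lay between -0.56 and 0.65, was positive in 6 mutants and negative in 4, and changed sign in *lsm1a lsm1b* (0.30), *upf1-5* (0.41), *upf3-1* (0.01) and *ccr4a* (0.23). Relative to the median of all genes on that scale, *SMAX1* had -0.37 in *lsm1a lsm1b*, 0.04 in *upf1-5*, -0.58 in *upf3-1* and -0.01 in *ccr4a*, within 0.05 of its TMM values. *SMXL5* and *SMXL4* rose in *lsm1a lsm1b* under each scaling, by log2FC of 5.26 and 4.11 with total reads and by 4.59 and 3.49 with DESeq2's size factors.

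**Figure D4:**
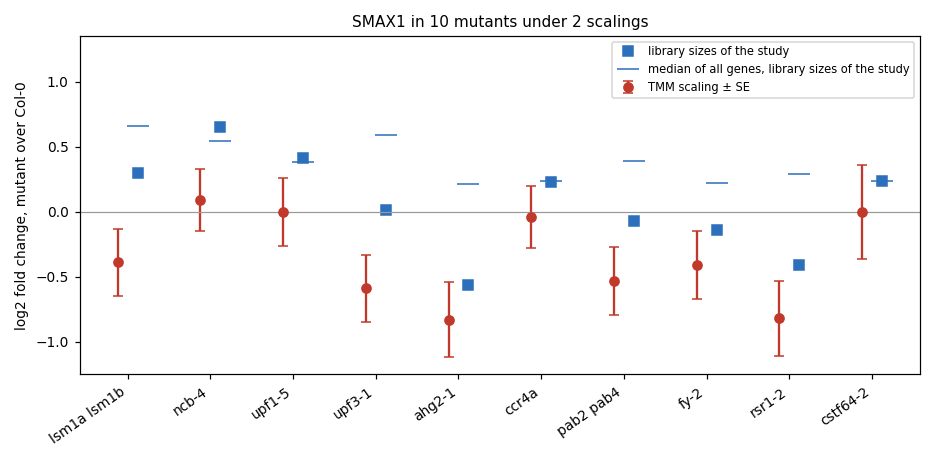
Log2 fold change of *SMAX1* in each mutant over the Col-0 of its set, after TMM scaling (red, ± SE) and on library sizes in total reads (blue squares), with the median of all genes on the second scale as blue dashes. The blue squares lie above the red points in all 10 mutants, and the dashes lie between 0.21 and 0.66.

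In the third set the members were compared at lower depth and in older plants. The family had 48 to 70 counts in *cstf64-2* and 40 to 67 in Col-0 (3). *SMAX1* had 14, 25 and 30 counts in *cstf64-2* against 24, 15 and 20 in Col-0 (3), with log2FC of 0.00 ± 0.36 (SE) and an adjusted p of 0.995 by edgeR. The groups overlapped fully. *SMXL2* had 5, 6 and 8 counts in *cstf64-2* and 5, 3 and 11 in Col-0 (3), and *SMXL3* had 7, 2 and 2 against 3, 0 and 3. *SMXL6* had 7, 4 and 13 counts in *cstf64-2* and 5, 7 and 12 in Col-0 (3). *SMXL7* had 9, 9 and 7 counts in *cstf64-2* and 3, 7 and 4 in Col-0 (3). *SMXL4* had 1, 5 and 6 in *cstf64-2* and 1, 4 and 6 in Col-0 (3), and *SMXL5* had 5, 2 and 2 against 1, 2 and 0. *SMXL8*, at 0 in most of the other libraries, had 0, 1 and 2 counts in *cstf64-2* and 0, 2 and 11 in Col-0 (3), so that 1 wild-type library held most of its reads.

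Neighbouring genes were looked at because *cstf64-2* affects the 3′ ends of transcripts, and reads of an antisense gene can fall on an exon. *SMXL6* was the one member with a protein-coding gene that converges on it with a gap under 400 bp, *AT1G07190*, at 299 bp. That gene had 1 count over all 39 libraries. The long non-coding *AT2G09115* overlaps *SMXL8* on the opposite strand by 156 bp, and had 2 counts in all. For *SMXL4* and *SMXL5* the nearest convergent protein-coding genes were 21414 and 5349 bp away. The strand setting of the counts is not given in the sources used here, so sense and antisense reads of a member cannot be told apart.

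The receptors, biosynthetic enzymes, corepressors and targets around the SMXL proteins were counted as a list of 23 genes, of which 6 to 9 passed the filter in each mutant. In *lsm1a lsm1b* 0 of 8 were called up and 1 was called down, where 2.2% and 5.46% of all genes were. This was *BES1*, a transcription factor of brassinosteroid signalling that is also a target of MAX2, with 27, 15 and 8 counts in *lsm1a lsm1b* against 29, 26 and 23 in Col-0 (1). Its log2FC was -1.31 (SE 0.37, adjusted p = 0.0219, edgeR) and -0.61 (adjusted p = 0.191) with library sizes in total reads, which is -1.28 relative to the median of all genes on that scale. The list's median log2FC was -0.50 in this mutant, beside -0.03 for all genes tested.

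In *cstf64-2* 3 of the 6 genes of this list that passed the filter were called up and 1 down, where 13.6% and 3.3% of all genes were. The 6 were the perception genes *D14*, *KAI2* and *MAX2*, which rose, the corepressor genes *TPL* and *TPR2*, and *PAP1*. No biosynthetic enzyme of the list passed the filter in *cstf64-2*, so none could be called. *D14*, the strigolactone receptor, had 133, 155 and 116 counts in *cstf64-2* against 38, 60 and 32 in Col-0 (3), with log2FC of 1.40 ± 0.20 (SE) and an adjusted p of 0.000338 by edgeR. *KAI2*, the karrikin receptor, had 37, 27 and 47 counts against 18, 4 and 5 (log2FC 1.81, SE 0.46). *MAX2*, the F-box protein of both pathways, had 22, 21 and 17 counts against 7, 4 and 9 (1.34, SE 0.38). The groups did not overlap for any of these 3 genes. *PAP1*, a MYB factor of anthocyanin synthesis, fell, with 8, 11 and 10 counts in *cstf64-2* against 17, 28 and 23 in Col-0 (3) and log2FC of -1.45 ± 0.35 (SE). It rose in *ncb-4*, with 14, 13 and 13 counts against 5, 2 and 3 in Col-0 (1) with log2FC of 1.46 ± 0.51 (SE) and an adjusted p of 0.0453 by edgeR, where 3.35% of all genes were called up. In the 7 mutants not named here for this list, 0 of its genes were called. In *pab2 pab4*, *KAI2*, *TPL* and *TPR2* had edgeR adjusted p-values of 0.0457, 0.0471 and 0.0485, with log2FC values of -0.91, -0.67 and -0.98. With DESeq2's size factors in edgeR the adjusted p-values were 0.0499, 0.0541 and 0.051. With library sizes in total reads log2FC was -0.48, -0.23 and -0.53, and the adjusted p-values were 0.327, 0.595 and 0.279 (edgeR). Relative to the median of all genes on that scale, log2FC was -0.87, -0.62 and -0.92.

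Of 6 Clp/Hsp100 relatives of the family, 3 or 4 passed the filter in each mutant. *CLPD*, a chloroplast chaperone subunit, fell in *ahg2-1* with 49, 53 and 72 counts and in *pab2 pab4* with 77, 81 and 68, against 93, 121 and 135 in Col-0 (2). The log2FC values were -1.22 (SE 0.18, adjusted p = 0.000117) and -1.11 (SE 0.17, adjusted p = 0.000118) by edgeR's quasi-likelihood test, where 5.27% and 4.47% of all genes were called down. With library sizes in total reads they were -0.98 and -0.67, where the medians of all genes were 0.21 and 0.39, and relative to these medians they were -1.19 and -1.07. *CLPC2*, another chloroplast subunit, rose in *cstf64-2* with 32, 36 and 32 counts against 10, 7 and 17 in Col-0 (3) (log2FC 1.31, SE 0.34, adjusted p = 0.0108, edgeR). None of the 6 was called by edgeR in *lsm1a lsm1b*, where 1 of the 3 that passed the filter, *CLPC1*, had an adjusted p of 0.0172 with log2FC of -0.64. Against the same Col-0 (1), *CLPC1* also had adjusted p-values under 0.05 in *ncb-4*, *upf1-5* and *upf3-1*, with log2FC of -0.67, -0.66 and -0.65 (edgeR). With library sizes in total reads it had 0.07 in *lsm1a lsm1b* (adjusted p = 0.81, edgeR), which is -0.59 relative to the median of all genes.

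The genes whose pattern over the 33 libraries of the first and second set was most like that of *SMXL4* and *SMXL5* were found by Pearson's r. Values were log2(RPM + 0.5) less the mean of the Col-0 of the set. The search covered 5237 protein-coding genes with a mean of at least 10 counts, a level that *SMXL4* itself did not reach. *SMXL5* reached that level only through the *lsm1a lsm1b* libraries, with 0 to 7 counts in the 30 others. Its match to *SMXL4* is therefore not independent of that mutant. The libraries share 2 sets of controls, and r is a description. For *SMXL4* they were *SMXL5* (r = 0.81), *AT5G38850* (r = 0.81) and *AT3G23690* (r = 0.79). For *SMXL5* they were *NIA1*, a nitrate reductase gene (r = 0.87), *AT5G63020* (r = 0.82) and *GAMMA-TIP*, a tonoplast aquaporin gene (r = 0.81). Each of them was high in *lsm1a lsm1b*. *NIA1* had 5120, 2508 and 16290 counts in that mutant against 80, 56 and 86 in Col-0 (1), and *AT5G63020* had 195, 183 and 186 against 14, 14 and 28. Over the 30 libraries other than *lsm1a lsm1b*, the values of r fell within -0.26 to 0.42, and that of *SMXL4* with *SMXL5* was 0.09, so the likeness rests on the 3 libraries of that mutant.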

How the data were processed

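Small RNA-seq of 39 libraries was analysed, 3 biological replicates per group by the labels and methods, with each mutant set against the Col-0 of its set. P-values measure the spread between these replicates. The authors deposited raw counts per Araport11 gene. Per their methods, adapters were removed with cutadapt 1.9, reads of at least 15 bases were kept after trimming with sickle, and Bowtie 1.0.0 mapped them to TAIR10 with no mismatch at up to 10 places. HTSeq 0.6.0 then counted them on exons, all lengths together. All lines of a file summed to more than the sequenced reads in the first and second set but not in the third, so reads with several places may have been counted in another way there, and no level was tested across it and the others. The 5 counter lines that name no gene held 59.5% to 63.7% of all counts in the first set, 61.5% to 64.1% in the second and 76.2% to 79.7% in the third. They were left out. Col-0 (3) came from an earlier submission of plants grown in parallel.

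Counts were tested in edgeR 4.0.16 (R 4.3.3) with TMM, filterByExpr and the quasi-likelihood test, and p-values were adjusted by Benjamini-Hochberg over every gene tested. A call needed an adjusted p under 0.05 and log2FC above 1 or below -1. The SE is the size of log2FC divided by the square root of F, an approximation. Gene models and sequences came from the RefSeq annotation of TAIR10.1, which may differ from Araport11. Intervals of count ratios are exact 95% binomial ones. Alternatives were DESeq2 1.42.0 (with and without a beta prior), its size factors, library sizes in total reads as the paper lists them, other filters, a replicate block, 1 fit per set, the other Col-0 and each library left out. Other steps used Python 3.11.15, pandas 2.3.3, scipy 1.17.1 and matplotlib 3.10.9.

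All 8 members were followed in every comparison. Counts of low members are given as ranges over the 30 libraries of the first and second set other than *lsm1a lsm1b*, Col-0 included. Their ratios to the wild type are given as ranges over the 9 other mutants, *cstf64-2* included. Listed pathway and Clp/Hsp100 genes are named where called, with 3 in *pab2 pab4* and *CLPC1* added after their values were seen. Neighbours were named where they overlap a member or converge within 400 bp, and the 3 most alike genes by r for *SMXL4* and *SMXL5*. The members and lists were chosen with earlier results of these data known.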

Additional observations from a re-analysis of the deposited data

Results flagged for a closer look

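The rise of *SMXL4* and *SMXL5* differed between mutants of the first set when *lsm1a lsm1b* was tested directly against each of the others by edgeR's quasi-likelihood test. The log2 fold changes of *SMXL5* were 4.56 over *ncb-4*, 4.47 over *upf1-5* and 6.30 over *upf3-1*. Those of *SMXL4* were 2.74, 3.85 and 2.22 over the same mutants. All are higher in 3 of 3 *lsm1a lsm1b* libraries, with no overlap. The 3 comparisons share the *lsm1a lsm1b* libraries.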

How the results depend on the processing

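The call of *SMXL5* in *lsm1a lsm1b* held in all 15 alternatives run, with log2 fold changes from 4.00 to 5.73 when a library was left out and from 3.42 to 5.26 in the others. *SMXL4* held in the 12 that gave it an adjusted p (2.95 to 4.11, adjusted p 0.000141 to 0.027 in edgeR). The number of members called in *lsm1a lsm1b* was 2 in each fit with a library left out and 1 with DESeq2, with or without a beta prior, and with a mean of at least 10 counts, since *SMXL4* got no adjusted p there. Directly against *upf1-5* and *upf3-1* DESeq2 without a beta prior called 1 member, for the same reason. Left-out libraries gave 1 to 2 members against *upf3-1*, and 0 to 1 in *ahg2-1* and in *rsr1-2*, the 1 being *SMAX1* (-1.11 and -1.07) without Col-0 (2) replicate 3. No called value reversed. *SMAX1*, not called, changed sign in 4 mutants with library sizes in total reads, to 0.30 in *lsm1a lsm1b*, 0.41 in *upf1-5*, 0.01 in *upf3-1* and 0.23 in *ccr4a*, where all genes shifted with it. Labels give all groups the numbers 1 to 3. The deviations of same-numbered libraries from their group means had correlations from -0.142 to 0.274, not over 0.1 in every pair of any comparison. They were highest in *cstf64-2* against Col-0 (3), at 0.00275, 0.195 and 0.274 for replicates 1, 2 and 3. With the replicate block the number of members called was 2 in *lsm1a lsm1b* and 0 in the other mutants. Members with under 10 counts per library limit the rest.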
